A study of Mus musculus with 2 samples.

Results

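Of 4799 long terminal repeats (LTRs) of intracisternal A particles (IAPs), 310 were at 70% methylation or more in AB2.2 embryonic stem (ES) cells and under 50% in Neuro2A cells. AB2.2 is an ES cell line from mouse strain 129. Neuro2A derives from a neuroblastoma of the brain in the A albino strain, and no treatment is named for either line. Each line gave 1 library of sheared DNA, converted with bisulfite, which leaves methylated cytosine unchanged, and amplified across IAP LTR ends into the sequence beside them. The 310 LTRs were chosen on the levels themselves, so their low Neuro2A levels are a description and carry no test. Line, strain, tissue and tumour origin differ together between the libraries and cannot be told apart, and whether each copy is present in both strains was not tested. DNA methylation alone was measured, so the labelled cell types could not be checked against marker genes. The comparison is between 2 lines and follows no cells over time, so the LTRs are called low in Neuro2A rather than demethylated. Whether they are also low in other cells was not analysed here.

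IAPs are endogenous retroviruses of the mouse that still move in the genome. A complete copy, the provirus, carries an identical LTR at each end when it inserts. The 5′ LTR holds the promoter that starts transcription of the element and the 3′ LTR holds the signals that end it. Recombination between the ends can leave a single LTR, and many copies have lost part of the sequence between their LTRs. CpG methylation of the LTR goes with silencing of the element in most tissues, and IAPs are known to keep much of it where other sequences are reprogrammed.

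The low set made up 6.46% of all loci and 6.92% of the 4479 loci at 70% or more in ES cells. The latter share is the background for every count below except those of neighbouring loci, for which it is the former. Of the other loci high in ES cells, 3467 were at 70% or more in both lines, called high in both here, and 702 were between 50 and 70% in Neuro2A cells. The opposite pattern, 70% or more in Neuro2A cells and under 50% in ES cells, was found at 13 loci, or 0.271% of all loci and 0.366% of those high in Neuro2A cells. No read number comes with the levels, so the depth behind each value is unknown. Intervals below are exact 95% binomial intervals over loci. They treat loci as independent, and include no error of sequencing and no spread between cultures.

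Within the low set the Neuro2A level ran from 0.0 to 49.9%, with a median of 39.7% and an interquartile range of 29.2 to 45.2%. The ES level ran from 70 to 98.6% with a median of 81.6%, against a median of 88.8% at loci high in both. The limits cut through a continuous range of levels. Just inside the Neuro2A limit lay IAPLTR2b on chromosome 6 (10488539 to 10488855) and IAPLTR1a_Mm on chromosome 7 (63591788 to 63592128), plus strand and 49.9% each. Just outside it lay IAPLTR2_Mm copies on chromosome 7 (47386685 to 47387117) and chromosome 2 (40439726 to 40440244), both on the plus strand and at 50%. At the ES limit, an IAPLTR2_Mm copy (94072259 to 94072706) and an IAPLTR2b copy (78596061 to 78596378), both on chromosome 9 and the minus strand, were inside at 70%. On the same strand, an IAPLTR2b copy on chromosome 9 (35625488 to 35625803) at 69.9% and an IAPLTR2_Mm copy on chromosome 3 (13515906 to 13516329) at 69.8% were outside. All positions are on mouse build mm9.

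By subfamily, the low set was mainly IAPLTR2. These names are classes of repeat sequence, and the class of a locus was not used to choose it. IAPLTR2_Mm gave 163 of the 310 loci (52.6%, interval 46.9 to 58.3), IAPLTR2a 57 (18.4%) and IAPLTR2b 33 (10.65%). IAPLTR1a_Mm gave 32 (10.3%) and IAPLTR1_Mm 19 (6.13%). The IAPLTR2 group as a whole held 81.6% of the low set (interval 76.8 to 85.8) and 42.5% of the loci high in both (interval 40.9 to 44.2). These intervals do not overlap. The excess was not particular to the low set: of the 702 loci between 50 and 70% in Neuro2A cells, 622 were IAPLTR2 copies (88.6%, interval 86.0 to 90.9). Read per locus, 13.2% of the IAPLTR2_Mm copies high in ES cells were low in Neuro2A cells, the highest share among subfamilies with at least 20 loci. The share was 9.53% for IAPLTR2a, 6.45% for IAPLTR2b and 2.62% for IAPLTR1a_Mm, and it was lowest for IAPLTR1_Mm at 2.12%. IAPLTR2b thus lay close to the background of 6.92%. The mix shifted with the limit: of the 32 loci under 20% in Neuro2A cells, 50% were IAPLTR2 copies (interval 31.9 to 68.1), a range that includes the share among loci high in both.

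Because the rule used the ES level, the share was also taken within bands of the ES level. From 70 to under 80%, 118 of 685 IAPLTR2 copies (17.2%) and 5 IAPLTR1 copies (4.90% of that group in the band) were low in Neuro2A cells. From 80 to under 90% the shares were 8.84 and 4.97%, and from 90% up the low set took 12 of 273 IAPLTR2 copies and 10 of 1294 IAPLTR1 copies (0.773%). IAPLTR2 was the higher group in each band, and in the middle band the intervals were 7.40 to 10.5 and 3.50 to 6.81%. Among candidate 5′ LTRs, defined below, the groups were closer: the shares were 28.1% for IAPLTR2 and 29.4% for IAPLTR1 in the lowest band, 19.2 and 10.5% in the middle band, and 7.04 and 4.41% in the highest.

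**Figure D1:**
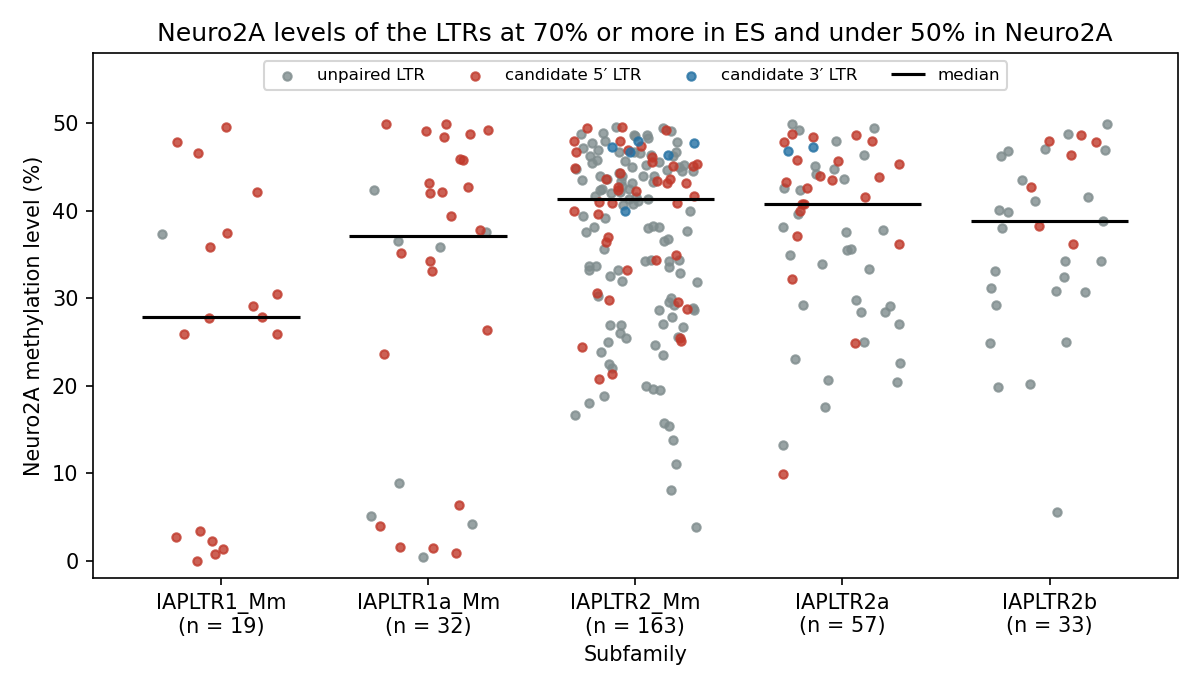
Neuro2A methylation level in percent (y axis) of each LTR of the low set, by subfamily (x axis); colours give the position in the candidate provirus and black lines the medians. No IAPLTR1_Mm or IAPLTR1a_Mm point lies between 8.9 and 23.6%, while IAPLTR2 points fill that range. The 6 IAPLTR4 and IAPLTR4_I members are not drawn.

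Within the low set the IAPLTR1 copies were few and split in level, as the plot of Neuro2A levels by subfamily shows. Of the 51 IAPLTR1_Mm and IAPLTR1a_Mm members, 15 were at 0.0 to 8.9% in Neuro2A cells with a median of 2.3%. The other 36 were at 23.6 to 49.9%, with a median of 38.6%. Among the 253 IAPLTR2 members, 4 were under 10%, 12 from 10 to under 20%, 44 from 20 to under 30%, 59 from 30 to under 40% and 134 from 40%. The ES levels of the 2 IAPLTR1 sets overlapped, with medians of 88.7 and 85.8%. In the lower set 12 of 15 copies lay on the minus strand, against 15 of the other 36, a split made after the values were seen. The lowest IAPLTR1_Mm member, on chromosome 7 (144606702 to 144607081, plus strand), had an ES level of 96.4% and was listed at 0.0% for Neuro2A. For IAPLTR1a_Mm the lowest lay on the minus strand of chromosome 4 (48696531 to 48696869), with 91.8% in ES and 0.4% in Neuro2A, and of chromosome 11 (106158561 to 106158897), with 88.7 and 0.9%.

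The lowest IAPLTR2 members reached less far down. The lowest IAPLTR2_Mm copies were on chromosome 5 (61943117 to 61943589, minus strand), with an ES level of 77.3% and a Neuro2A level of 3.9%, and on chromosome 2 (95828635 to 95829089, plus strand), at 77.4 and 8.1%. For IAPLTR2a they were on the minus strand of chromosome 16 (64385967 to 64386354), with 75.6 and 9.9%, and of the X (49295072 to 49295451), with 81.8 and 13.2%. The lowest IAPLTR2b copy, on the X (89307339 to 89307641, minus strand), had 89.9 and 5.6%, and the next, on chromosome 12 (22983559 to 22983869, minus strand), 84.3 and 19.9%.

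The rare subfamilies IAPLTR4 and IAPLTR4_I added 4 and 2 members, described here after their values were seen. These were 4 of 5 IAPLTR4 loci and 2 of 3 IAPLTR4_I loci high in ES cells, too few to compare with the background of 6.92%. Loci named IAPLTR4_I are listed among the LTRs, and whether they hold sequence from between the LTRs instead was not tested. All 4 IAPLTR4 members were on chromosome 4, were 346 bp long and lay within 1.737 Mb. From the lowest coordinate up, at 145272045 to 145272390, 146135184 to 146135529, 146742701 to 146743046 and 147008986 to 147009331, their ES levels were 81.3, 76.2, 73.7 and 73.1%. Their Neuro2A levels were 38.1, 32.7, 30.8 and 31.3%. The differences between the lines were thus close, from 41.8 to 43.5 points. Copies of one length in one region can share reads, and how the authors placed such reads is not given in the sources used here. Whether these 4 do was not tested. The IAPLTR4_I members lay on the plus strands of chromosomes 17 (32853443 to 32853765) and 6 (128562361 to 128562653). The first had an ES level of 91.6% and a Neuro2A level of 6.0%, and the other 81.1 and 40%.

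LTR length followed subfamily. The median was 403.5 bp in the low set (interval of the median 397 to 421) and 354 bp at loci high in both (353 to 356). Within subfamilies the medians lay much closer. IAPLTR2_Mm members had a median of 450 bp against 461.5 bp, and IAPLTR2a members 385 bp against 393 bp, so members were slightly shorter in both. Of the IAPLTR2_Mm copies high in ES cells, 15.5% of those at or under the median length and 10.8% of the longer ones were in the low set. IAPLTR1_Mm members had 370 bp against 367 bp, IAPLTR1a_Mm members 335.5 bp against 337 bp and IAPLTR2b members 324 bp against 327 bp. LTRs under 300 bp were rare, with 8 in the low set (2.58%) and 37 among loci high in both (1.07%). IAPLTR2b gave 5 of the 8, or 15.15% of its 33 members, against 5.47% of its 311 loci high in both. The shares were 1.23 and 1.45% for IAPLTR2_Mm, and no IAPLTR1_Mm, IAPLTR1a_Mm or IAPLTR2a member was that short. Strand did not separate the sets taken whole: 163 of 310 members (52.6%, interval 46.9 to 58.3) and 51.1% of loci high in both lay on the minus strand. The share was 71.9% (interval 53.25 to 86.25) in the 32 members under 20% in Neuro2A cells. It was 30.4% (13.2 to 52.9) in the 23 members at 90% or more in ES cells.

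Position in the provirus differed between the sets. A candidate provirus was taken as a pair of measured LTRs next to each other, alike in subfamily and strand and separated by 1 to 8 kb, and the upstream one on that strand was called the candidate 5′ LTR. This gave 913 pairs. The low set held 114 candidate 5′ LTRs, 8 candidate 3′ LTRs and 188 unpaired loci. Candidate 5′ LTRs were 36.8% of it (interval 31.4 to 42.4) and 18.2% of loci high in both (16.9 to 19.5). Candidate 3′ LTRs were 2.58% of it (1.12 to 5.02) and 20.2% of loci high in both (18.8 to 21.5). Among members in a pair, 93.4% (interval 87.5 to 97.1) were 5′ LTRs, against 47.4% among loci high in both. Unpaired loci were 60.65% of the low set and 61.4% of loci high in both. An unpaired locus may be a solitary LTR or one whose partner was not among the measured loci. How reads that match several copies were placed is not given. Whether this affects the 5′ and 3′ LTRs alike was not tested, so the difference between the ends is one of listed levels.

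**Figure D2:**
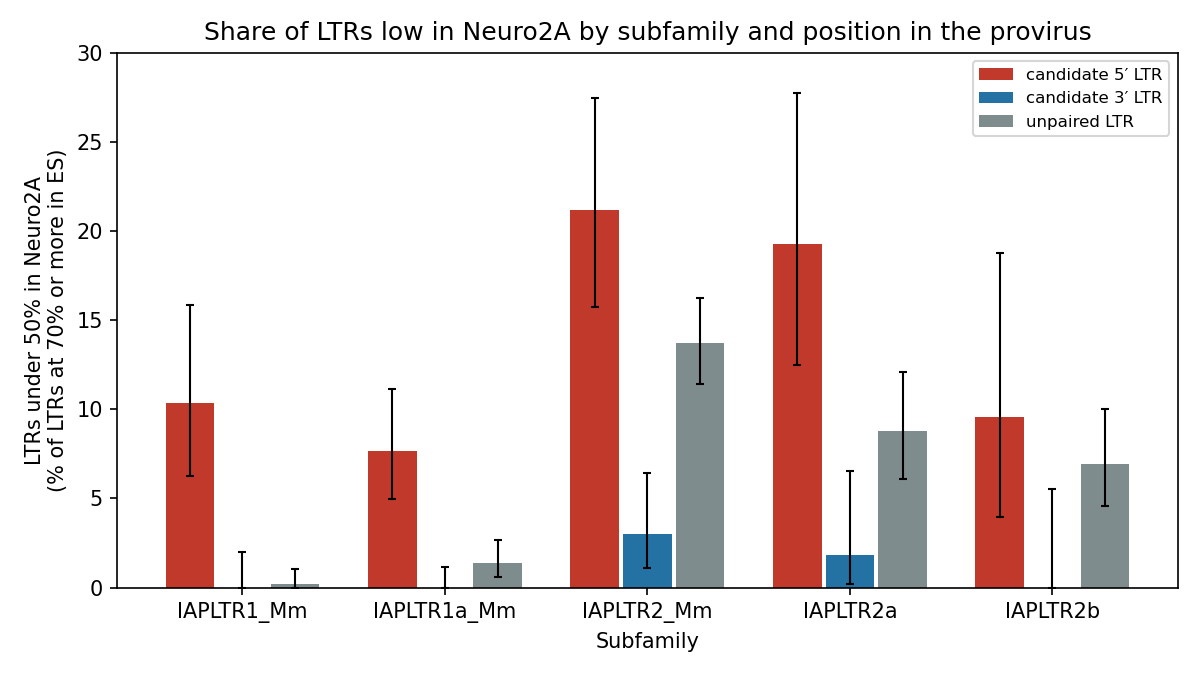
Share of LTRs under 50% in Neuro2A among those at 70% or more in ES (y axis, percent) by subfamily (x axis) and position in the candidate provirus (bar colour), with exact 95% intervals over loci. Candidate 5′ LTRs have the highest bar in all 5 subfamilies and candidate 3′ LTRs have the lowest, at 0 to 3.0%.

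The same order of the ends held in each large subfamily, as the plot of shares by position shows. Per locus high in ES cells, candidate 5′ LTRs were low in Neuro2A cells at 18 of 174 IAPLTR1_Mm copies (10.3%), 24 of 314 IAPLTR1a_Mm (7.64%), 43 of 203 IAPLTR2_Mm (21.2%), 22 of 114 IAPLTR2a (19.3%) and 7 of 73 IAPLTR2b (9.59%). Candidate 3′ LTRs were low at 0 of 181, 0 of 314, 6 of 200, 2 of 108 and 0 of 65, in that order. The intervals of the ends overlap for IAPLTR2b (3.94 to 18.8 against 0 to 5.52%) and do not in the other 4 subfamilies. Unpaired loci divided the groups. They were low at 1 of 543 IAPLTR1_Mm copies and 8 of 591 IAPLTR1a_Mm copies, but at 114 of 832 IAPLTR2_Mm copies (13.7%), 33 of 376 IAPLTR2a (8.78%) and 26 of 374 IAPLTR2b (6.95%). IAPLTR1 members were 5′ LTRs in 42 of 51 cases, against 397 of 1990 IAPLTR1 loci high in both. IAPLTR2 members were unpaired in 173 of 253 cases, near the share of IAPLTR2 loci high in both (1027 of 1474).

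The end of the provirus did not mark the intermediate class in the same way. Among the 702 loci at 50 to under 70% in Neuro2A cells, 133 were candidate 5′ LTRs (18.95%) and 161 candidate 3′ LTRs (22.9%). That class differed by group: IAPLTR1 copies in it were 5′ LTRs at 49 and 3′ LTRs at 5 of 80 loci, and IAPLTR2 copies were 84 and 156 of 622. With pairs limited to 4 to 8 kb, 8.71% of the low set and 9.81% of loci high in both were candidate 5′ LTRs, so the pooled excess was not seen under that limit. Split by group, which was added after the data were seen, the same limit gave 52.9% of IAPLTR1 members (interval 38.5 to 67.1) against 15.8% of IAPLTR1 loci high in both, and none of the IAPLTR2 members against 1.76%. No member was a candidate 3′ LTR under that limit.

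**Figure D3:**
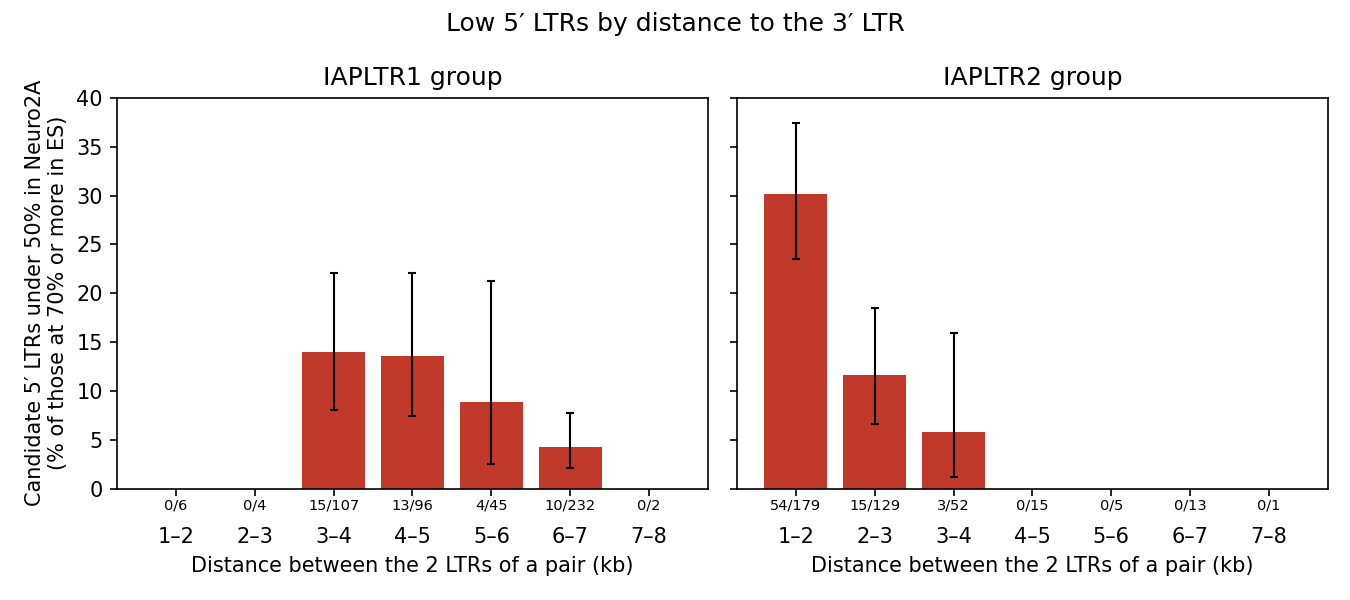
Share of candidate 5′ LTRs under 50% in Neuro2A among those at 70% or more in ES (y axis, percent) by distance to the 3′ LTR of the pair (x axis, kb), with counts under the bars and exact 95% intervals for bins of at least 20 loci. The share is 30.2% at 1 to 2 kb in the IAPLTR2 group, and in the IAPLTR1 group it is 14.0% at 3 to 4 kb and 4.31% at 6 to 7 kb.

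Low 5′ LTRs lay closer to their 3′ LTR than high ones. The distance was a median of 2010 bp (interval of the median 1932 to 2449) in the 114 pairs with a low 5′ LTR. It was 4189 bp (3976 to 4472) in the 639 pairs whose 5′ LTR was high in both, 8 of which have a 5′ LTR that is also the 3′ LTR of another pair. Within subfamilies the medians were 4623.5 against 6372 bp for IAPLTR1_Mm, 3851.5 against 5940.5 bp for IAPLTR1a_Mm and 1867 against 2032.5 bp for IAPLTR2_Mm. They were 1917.5 against 2019 bp for IAPLTR2a and 1950 against 3208 bp for IAPLTR2b. The low pairs were the closer ones in all 5 subfamilies, and the interval of their median left out the other median in each but IAPLTR1_Mm (4499 to 6384 bp). The pooled order depended on the limit, and so did the mix of the pairs. With the 5′ LTR under 30% in Neuro2A cells, 18 of 28 pairs were IAPLTR1 and the pooled median was 4281 bp. Under 20%, 11 of 12 were IAPLTR1 and it was 4555 bp. Within IAPLTR1, a split added after the data were seen, the medians at these limits were 4935 and 4607 bp, against 6363 bp in pairs whose 5′ LTR was high in both. Within IAPLTR2 the 10 pairs under 30% had 1896 bp against 2071.5 bp. Spacing and subfamily are tied, since IAPLTR1 pairs at 6 to 7 kb are the commonest of that group and IAPLTR2 pairs mostly lie under 3 kb. On chromosome 7, IAPLTR2_Mm 5′ members starting at 22164901, 22647898 and 23871087 were each 466 bp long with 1790 bp to the 3′ LTR. IAPLTR2b 5′ members starting at 20882785 and 23078107 were each 360 bp long with 2254 bp to it. IAPLTR2a 5′ members starting at 7976225 and 9546730 were each 377 bp long with 1809 bp to it. Such copies count as separate loci, and whether they share reads was not tested.

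In bins of 1 kb, chosen after the data were seen, the share of low 5′ LTRs was smaller at larger distances in both groups taken as a whole, though not step by step in IAPLTR1_Mm. For the IAPLTR1 group it was 15 of 107 (14.0%) at 3 to 4 kb, 13 of 96 (13.5%) at 4 to 5 kb, 4 of 45 (8.89%) at 5 to 6 kb and 10 of 232 (4.31%) at 6 to 7 kb. The intervals of the first and last of these, 8.06 to 22.1 and 2.09 to 7.78%, do not overlap. The subfamilies differed below 6 kb: IAPLTR1a_Mm gave 14 of the 15 low LTRs at 3 to 4 kb, and the IAPLTR1_Mm share was 1 of 13, 9 of 56 (16.1%) and 3 of 8 in the bins from 3 to 6 kb, before 5 of 93 (5.38%) at 6 to 7 kb. For the IAPLTR2 group it was 54 of 179 (30.2%, interval 23.5 to 37.5) at 1 to 2 kb, 15 of 129 (11.6%, 6.66 to 18.5) at 2 to 3 kb, and 3 of 52 (5.77%) at 3 to 4 kb. None of the IAPLTR2 pairs further apart had a low 5′ LTR, in bins of 15 pairs or fewer. The bins from 1 to 3 kb of the IAPLTR1 group held 6 and 4 pairs, none of them low.

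The IAPLTR1 pairs with a low 5′ LTR and a spacing of 6 kb or more numbered 10, and they too divided in level. They were picked out after their values were seen. Their 5′ LTRs on chromosome 1 (74706807 to 74707173), chromosome 12 (66134957 to 66135294 and 86748791 to 86749127) and chromosome 16 (20579805 to 20580163) had Neuro2A levels of 1.3, 1.5, 1.6 and 4.0%, and all lay on the minus strand. The remaining 6, all on the plus strand, were at 25.9 to 48.7%. Of the 11 IAPLTR1 5′ LTRs under 10%, 4 had this spacing, and of the 31 at 10% or more, 6 did.

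**Figure D4:**
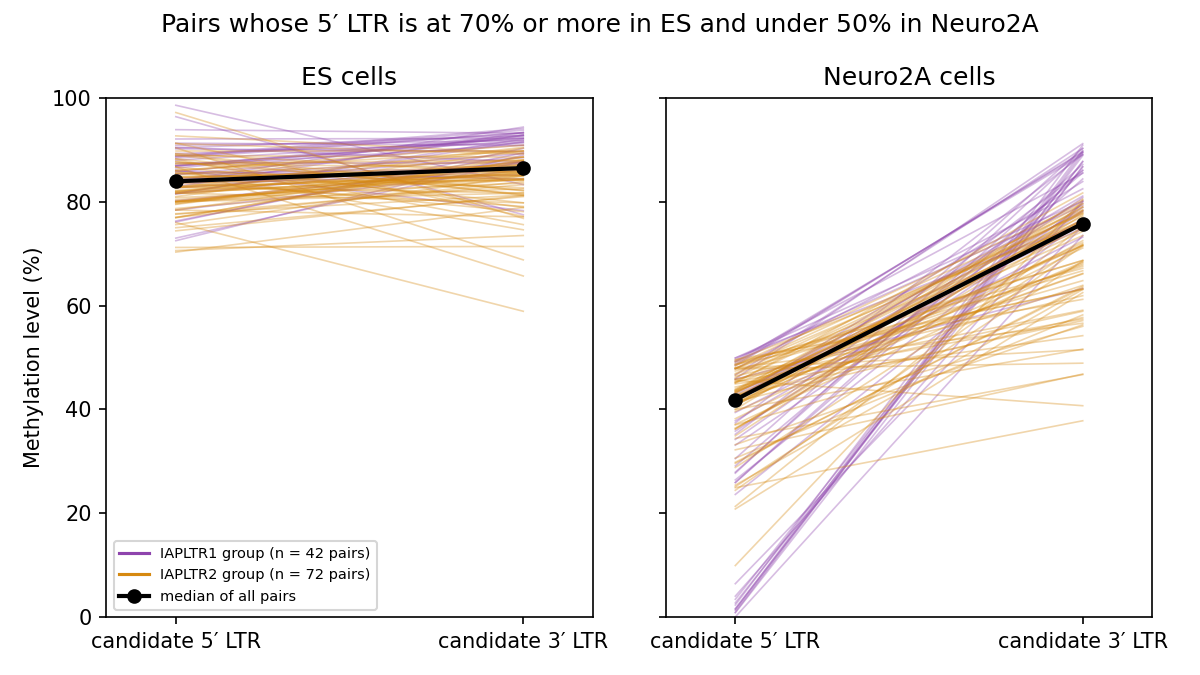
Methylation level in percent (y axis) of the candidate 5′ and 3′ LTR of the 114 pairs whose 5′ LTR is in the low set, in ES cells (left) and Neuro2A cells (right); each line is a pair, coloured by group, and black points are the medians. In Neuro2A cells the 3′ LTR is the higher one in 113 of 114 pairs, with medians of 41.85 and 75.8%.

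The 3′ partners of low 5′ LTRs, which were not chosen on their own level, were mostly high. Their partner was chosen for its low level, so the order of the ends in Neuro2A cells is a description. In Neuro2A cells their level ran from 37.8 to 91.2% with a median of 75.8%, and in ES cells from 58.9 to 94.4% with a median of 86.5%. Of the 114 partners, 75 were high in both lines, 34 were at 50 to under 70% in Neuro2A cells, 2 were in the low set and 3 were under 70% in ES cells. Partners of 5′ LTRs that were high in both had a Neuro2A median of 84.1%. Of the 12 pairs with a 5′ LTR under 20%, 11 were IAPLTR1, and their partner median was 87.7%, against 87.1% in IAPLTR1 pairs whose 5′ LTR was high in both. By subfamily the partner medians in Neuro2A cells were 86.75 against 87.1% for IAPLTR1_Mm and 80.05 against 87.15% for IAPLTR1a_Mm. They were 68.7 against 73.05% for IAPLTR2_Mm, 68.05 against 72.1% for IAPLTR2a and 71.1 against 71.0% for IAPLTR2b. Partners of low 5′ LTRs were thus lower in 3 of the 5 subfamilies and within 1 point in IAPLTR1_Mm and IAPLTR2b. In all 5 the interval of the median beside low 5′ LTRs, for example 76.7 to 87.8% in IAPLTR1a_Mm, held the other median.

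For IAPLTR1 pairs under 6 kb the partner medians were 80.95% beside a low 5′ LTR and 86.8% beside a high one. From 6 kb up they were 87.5 and 87.3%. For IAPLTR2 pairs under 2 kb they were 71.5 and 72.25%, and from 2 kb up 63.15% (18 pairs) and 72.55%. The medians were thus further apart in the closer IAPLTR1 pairs and in the wider IAPLTR2 pairs, a difference that was not tested. The plot of both ends shows how far apart the listed levels of a pair could be. Whether reads shared between copies affect these levels was not tested. The IAPLTR1a_Mm 5′ LTR on chromosome 11 named above, at 0.9% in Neuro2A cells, stood 4198 bp from a 3′ LTR at 89.4%. The IAPLTR2a 5′ LTR on chromosome 16, at 9.9%, stood 1171 bp from a 3′ LTR at 80.3%.

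In ES cells the ends of these copies were much closer. Subtracting the 3′ from the 5′ level gave a median of -2.85 points in pairs with a low 5′ LTR and 0.0 in pairs whose 5′ LTR was high in both. The 5′ LTR was the lower end in ES cells in 79 of 114 and 319 of 639 pairs. By subfamily the medians were -4.1 against -1.5 points for IAPLTR1_Mm, -4.9 against -2.2 for IAPLTR1a_Mm, -2.6 against 5.35 for IAPLTR2_Mm, 0.05 against 6.4 for IAPLTR2a and -2.3 against 8.15 for IAPLTR2b. The rule used the ES level of the 5′ LTR, so these values are a description.

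The 8 members that were candidate 3′ LTRs were all IAPLTR2_Mm or IAPLTR2a copies, in pairs 1818 to 2537 bp apart. Their 5′ partners had Neuro2A levels of 32.2 to 88.9% with a median of 53.85%. Of these partners 2 were members, 5 were at 50 to under 70% and 1 was high in both. The last belonged to an IAPLTR2_Mm copy on chromosome 18 whose 3′ LTR (19585994 to 19586466, minus strand) had an ES level of 89.8% and a Neuro2A level of 39.9%, beside a 5′ LTR at 92.8 and 88.9%. Both LTRs were members in 2 pairs. In the IAPLTR2a pair on the X, the 5′ LTR (107702952 to 107703345, minus strand) had 78.4 and 32.2% and the 3′ LTR (107700550 to 107700946) 87.9 and 46.8%. In the IAPLTR2_Mm pair on chromosome 18, the 5′ LTR (23397219 to 23397775, plus strand) had 70.3 and 34.4% and the 3′ LTR (23399594 to 23400150) 78.9 and 46.7%. The 5′ end was the lower one in both.

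Along the chromosomes the low LTRs were mostly scattered, with a modest excess of near neighbours. Joined where no more than 100 kb apart, they formed 275 single loci, 16 couples and 1 group of 3. The group of 3 lay on chromosome 13, with IAPLTR2_Mm copies at 82191897 to 82192380 (43.9% in Neuro2A cells) and 82250003 to 82250454 (48%) and an IAPLTR2b copy at 82348961 to 82349297 (34.2%). Another member lay within 100 kb of 35 of 310 members (11.3%, interval 7.99 to 15.3) and of 188 of 3467 loci high in both (5.42%, 4.69 to 6.23). At lower Neuro2A limits both shares were smaller: they were 6.33 and 2.68% under 40%, 7.23 and 1.36% under 30%, and 6.25 and 0.490% under 20%, where the set held 32 loci.

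**Figure D5:**
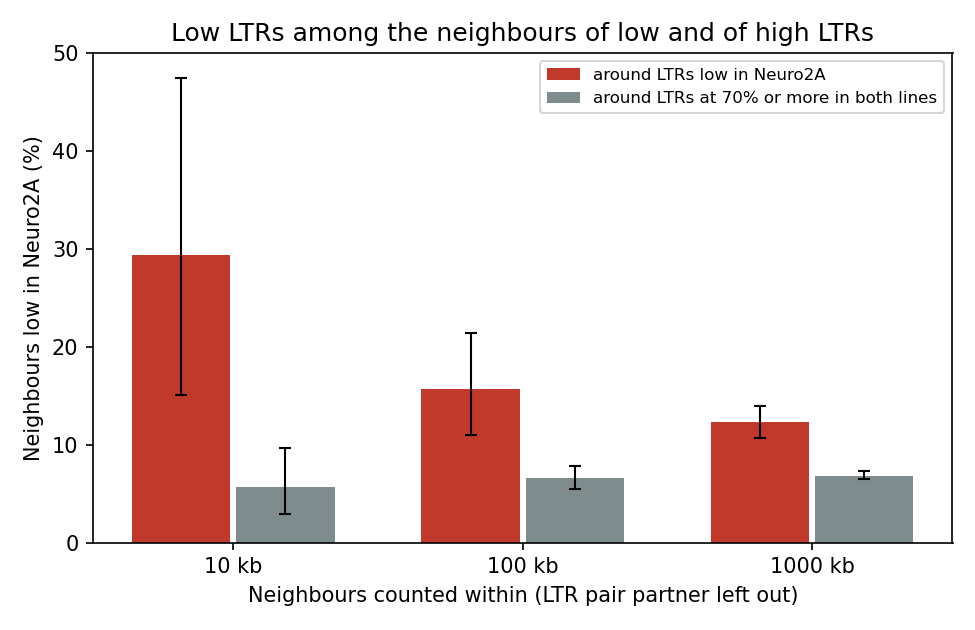
Share of neighbouring loci that are low in Neuro2A (y axis, percent), counted within 10, 100 or 1000 kb (x axis) of low LTRs (red) and of LTRs at 70% or more in both lines (grey), the pair partner left out; bars carry exact 95% intervals that ignore that neighbours are shared. Around low LTRs the share is 29.4, 15.7 and 12.3%, and around high ones 5.63, 6.59 and 6.85%.

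With the pair partner left out, members made up 10 of 34 neighbours within 10 kb of a member (29.4%), 32 of 204 within 100 kb (15.7%) and 202 of 1646 within 1000 kb (12.3%). Around loci high in both, the shares were 5.63, 6.59 and 6.85%, near the 6.46% of all loci. Neighbours at any ES level were counted, so that share is their background. The plot of neighbours shows both sets with intervals, which are too narrow around members because each couple counts from both sides. In the IAPLTR2 group the share within 100 kb was 29 of 176 (16.5%) around members and 5.59% around loci high in both. In the IAPLTR1 group it was 2 of 21 and 7.53%, too few to compare. Nearest neighbours that were not members themselves had a median Neuro2A level of 79.1% beside members and 82.7% beside loci high in both, and ES medians of 86.9 and 86.7%. Both sets of neighbours thus lay at one ES level, and the neighbours of members were the lower in Neuro2A cells. Around IAPLTR2 loci these Neuro2A medians were 78.2 against 82.8%. Around IAPLTR1 loci they were close, at 81.75% (44 neighbours of members) against 82.5%. The subfamily of the neighbours was not matched.

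All 10 of these members with a member within 10 kb formed 5 couples on opposite strands. That is largely set by leaving out pair partners, which removes neighbours alike in subfamily and strand 1 to 8 kb apart. The step took out 2 couples of members, at 1818 and 2005 bp. On chromosome 16, IAPLTR2a copies at 60883918 to 60884279 (plus strand) and 60884321 to 60884682 (minus strand), 41 bp apart, had Neuro2A levels of 28.4 and 20.4%. On chromosome 1, IAPLTR2_Mm copies 994 bp apart (152076815 to 152077325 and 152078320 to 152078591) had 47.7 and 40.8%, and IAPLTR2a copies 2025 bp apart (102425534 to 102425918 and 102427944 to 102428340) had 29.2 and 25%. On chromosome 15, an IAPLTR2a and an IAPLTR2_Mm copy 2281 bp apart (29060582 to 29060967 and 29063249 to 29063675) had 27.0 and 47.4%. In these 4 couples the 3′ sides of the LTRs face each other. In the fifth, on chromosome 8, 5′ LTRs of separate IAPLTR1_Mm pairs (13715388 to 13715757 and 13719305 to 13719641) face each other with their 5′ sides and had 0.8 and 2.7%. Both LTRs of a couple were near one level in 4 of the 5, and stood furthest apart on chromosome 15.

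By chromosome, the share of ES-high loci that were low in Neuro2A cells was highest on chromosome 1, at 35 of 365 (9.59%, interval 6.77 to 13.1), followed by the X at 35 of 386 (9.07%). Chromosome 11 was the lowest of the numbered chromosomes and the X, at 7 of 156 (4.49%, interval 1.82 to 9.03). These intervals overlap each other and hold the background of 6.92%. None of the 60 ES-high loci on the Y or on unplaced sequence was in the low set. Of these, 36 lay on unplaced Y sequence, where the exact interval reaches 9.74%. Within the IAPLTR2 group the share was 13.9% on chromosome 1, 13.3% on the X and 10.3% on the other autosomes. Within the IAPLTR1 group these were 4.27, 3.59 and 2.16%.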

How the data were processed

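Per the file headers, the authors deposited a score per LTR on mm9, the methylation fraction times 1000. Dividing by 10 gave percent. The submitters' processing notes list Bowtie2. Its role and version, the methylation caller, the filters and the handling of multiply mapping reads are not stated in the labels or headers. Libraries were joined by locus name, and position, subfamily and strand were read from the name, with starts written 1-based. The name was used at 1 ES locus whose position columns differ from it. The members and lists were chosen with earlier results of these data known. With 1 library per line there is no test between lines, and sets of loci are described by counts, medians and exact 95% intervals (Clopper-Pearson for shares, order statistics for medians). Named loci are the 2 members with the lowest Neuro2A level in each of the 5 large subfamilies, pairs with both LTRs low, groups of 3 within 100 kb, and loci next to the limits; other loci were chosen after their values were seen. No mm9 genome or annotation was used, so genes and LTR sequences are not given. Alternatives changed the limits, the comparison loci, the pair distance, the reach and the loci kept. Scripts (Python 3.11.15, pandas 2.3.3, scipy 1.17.1) were tested on simulated levels with planted members.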

Additional observations from a re-analysis of the deposited data

How the results depend on the processing

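No paired analysis was possible because a line is represented by 1 library alone. Of 167 alternative values, 91 stayed within the interval of the reported value or, for the number of members, within 1.5 times, 64 moved further and 12 changed sides against the comparison loci. Of the 154 shares and medians, 142 stayed on their side. Alternatives that changed only the comparison loci repeat the reported value. They could change sides but could not move, and they count among the 91. Where a cause is not named, the cause was not tested. With the Neuro2A limit at 40, 30 and 20%, members numbered 158, 83 and 32, the IAPLTR2 share was 75.3, 72.3 and 50%, the median length 395, 388 and 368.5 bp, and the share with another member within 100 kb 6.33, 7.23 and 6.25%, against 2.68, 1.36 and 0.490% of comparison loci. The 3′ share was 0.633, 0.0 and 0.0%, and the pair spacing 3648, 4281 and 4555 bp, the last 2 above the 4189 bp of comparison pairs, with 18 of 28 and 11 of 12 pairs from IAPLTR1. The 5′ share was 30.4% at 40%, the 3′ partner median 80.15% at 30% and 87.25% at 20% (12 pairs), above the 84.1% of comparison pairs but near the 87.1% of those of IAPLTR1, and the minus-strand share 71.9% at 20%. With the ES limit at 80 and 90%, members numbered 184 and 23, the IAPLTR2 share was 73.4 and 52.2%, the length 395.5 and 374 bp, the 5′ share 49.5 and 60.9% and the share with a member in reach 6.52 and 0.0%, the latter with an interval of 0 to 14.8% that holds the 0.6% of comparison loci. At 90% the minus-strand share was 30.4%, below 51.5%, the 3′ share 0.0%, the partner median 79.85% and the spacing 4458.5 bp. A difference of 40 points or more gave 184 members, 74.5% IAPLTR2, 395 bp, a 3′ share of 1.09% and a spacing of 2537 bp. Shifting Neuro2A by 6.1 points to the ES median left 212 members. It gave a 3′ share of 0.472%, a partner median of 82.4% and 6.60% with a member in reach. Keeping 1 locus per 100 kb left 197 members with 38.6% on the minus strand, a 5′ share of 23.35% and a 3′ share of 1.02%. It keeps the first locus by position, which in a minus-strand pair is the 3′ LTR, and gives no value for partners, spacing and clustering. Pairs of 4 to 8 kb gave a 5′ share of 8.71% (52.9% within IAPLTR1, 0.0% within IAPLTR2), a 3′ share of 0.0%, a partner median of 86.8% and a spacing of 5079 bp. Reaches of 10 and 1000 kb gave 4.52 and 41.3% with a member in reach. Within IAPLTR1_Mm, IAPLTR1a_Mm, IAPLTR2_Mm and IAPLTR2b the 5′ share was 94.7, 75, 26.4 and 21.2%, and the 3′ share was 0.0% in all but IAPLTR2_Mm. Their minus-strand share, also an alternative added after the data were seen, was 36.8, 62.5, 51.5 and 48.5%. Within subfamilies, an alternative added after the data were seen, partner medians were 86.75, 80.05, 68.7, 68.05 and 71.1% for IAPLTR1_Mm, IAPLTR1a_Mm, IAPLTR2_Mm, IAPLTR2a and IAPLTR2b, the last above 71.0%, and spacings in the first 4 were 4623.5, 3851.5, 1867 and 1917.5 bp. Depth per locus is unknown, so levels near the limits may change class with counting error.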

Other observations

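The 13 loci at 70% or more in Neuro2A cells and under 50% in ES cells, the opposite pattern, comprised 5 IAPLTR2_Mm, 4 IAPLTR2b, 2 IAPLTR2a and 2 IAPLTR1_Mm copies. Of these, 11 were unpaired (84.6%, exact 95% interval over loci 54.55 to 98.1), 2 were candidate 5′ LTRs and 0 were candidate 3′ LTRs. Both 5′ LTRs were the IAPLTR1_Mm copies. The minus strand held 8 of the 13. The set is too small to compare with the shares of the low set.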
